A study of Macaca nemestrina with 15 samples.

Results

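Transcripts of the inflammasome and of the interleukin-1 cytokines were followed in the blood cells of 5 female pig-tailed macaques (*Macaca nemestrina*) given islatravir (ISL), a nucleoside reverse transcriptase translocation inhibitor that inhibits HIV. The list held 10 genes, namely the sensors *NLRP3*, *NLRP1*, *NLRC4* and *AIM2*, the adaptor and effectors *PYCARD*, *CASP1* and *GSDMD*, and the cytokines and antagonist *IL1B*, *IL18* and *IL1RN*. They were chosen by name. A row of the count table carried the name of 9 of the 10, and *NLRC4* was not analysed here. All 9 had enough counts to be tested, among 12880 features tested of the 28865 in the table. Each animal gave peripheral blood mononuclear cells (PBMCs) before treatment, at week 12 and at week 18, which makes 15 libraries. All 5 received ISL by mouth at 30 mg/kg once a week for 12 weeks, and the name week 18 places the last sample 6 weeks after the course. No untreated animals were sequenced, so treatment and elapsed time cannot be told apart.

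Inflammasomes are protein platforms that assemble in the cytosol when a sensor meets a danger signal. NLRP3 responds to potassium efflux and other cell stress, NLRP1 to pathogen activities such as proteases, and AIM2 to double-stranded DNA in the cytosol. The sensor recruits PYCARD (ASC), the adaptor that gathers the protease caspase-1 (*CASP1*). Caspase-1 cuts the precursors of interleukin-1β (*IL1B*) and interleukin-18 (*IL18*) and frees the pore-forming part of gasdermin D (*GSDMD*), through which the cytokines leave and the cell may die by pyroptosis. The antagonist *IL1RN* occupies the interleukin-1 receptor without signaling. In blood, monocytes are a main source of *IL1B* and *NLRP3*. Much of the control of the pathway acts on proteins, which RNA counts do not measure.

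Between 5610597 and 10379572 reads per library fell on features (median 8871860). Levels are given as CPM, counts scaled to a common library total after edgeR's TMM method had evened out differences in RNA composition. They are compared within a gene only, since gene lengths were not used. When the mean of each time point was taken out, libraries from 1 animal resembled each other, with a mean correlation of 0.551 over 15 pairs. It was −0.137 over 60 pairs that shared neither animal nor time, a value largely set by taking out the means and no separate contrast. Because libraries of an animal resembled each other, tests are also given with the animal as a block. Dates in the library names, whose meaning is not stated, lie 56 or 57 and 84 days after the earliest of each animal. This differs from the week labels, and the study's methods and a figure legend give different weeks for the last sample. The time since the last dose is thus uncertain. Z15303, Z15339 and Z15408 share their dates, and the other 2 animals have dates of their own. The libraries of Z15303 at week 12 and week 18 and of Z15408 before treatment stood apart from their group most often, at 4.15%, 3.14% and 2.73% of features against 0.474% to 1.45% in the other 12 libraries. The week 12 and week 18 libraries of Z15303 also had the fewest reads on features, 5610597 and 5886482. Leaving out each animal in turn changed no call of a gene of the list between time points.

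None of the 9 genes passed edgeR's quasi-likelihood test between any 2 time points, at an adjusted p of 0.05 over all features. The same holds with the animal as a block and with DESeq2 in both designs, and in none of these 4 fits did a gene of the list reach an unadjusted p of 0.05. Among all features, edgeR called 0% in each comparison without the block. With it, edgeR called 0.00776% at week 12 vs. pre-treatment, 0.00776% at week 18 vs. pre-treatment and 0% at week 18 vs. week 12. At an unadjusted p of 0.05 the shares over all features were 1.61%, 1.69% and 0.505% without the block, and 4.69%, 5.85% and 2.17% with it. No gene of the list had time points that did not overlap, which 0.280%, 0.334% and 0.101% of all features had. The log2 fold changes of the 9 genes had a median of −0.10 at week 12 (range −0.22 to 0.23), −0.17 at week 18 (range −0.35 to 0.25) and 0.01 from week 12 to week 18 (range −0.58 to 0.32). The medians over all features were near 0 (0.0037, 0.00071 and −0.0029). Fold changes were below 0 for 6 of the 9 genes at week 12, 5 at week 18 and 4 between the later times, against 49.0%, 49.8% and 51.1% of all features.

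**Figure D1:**
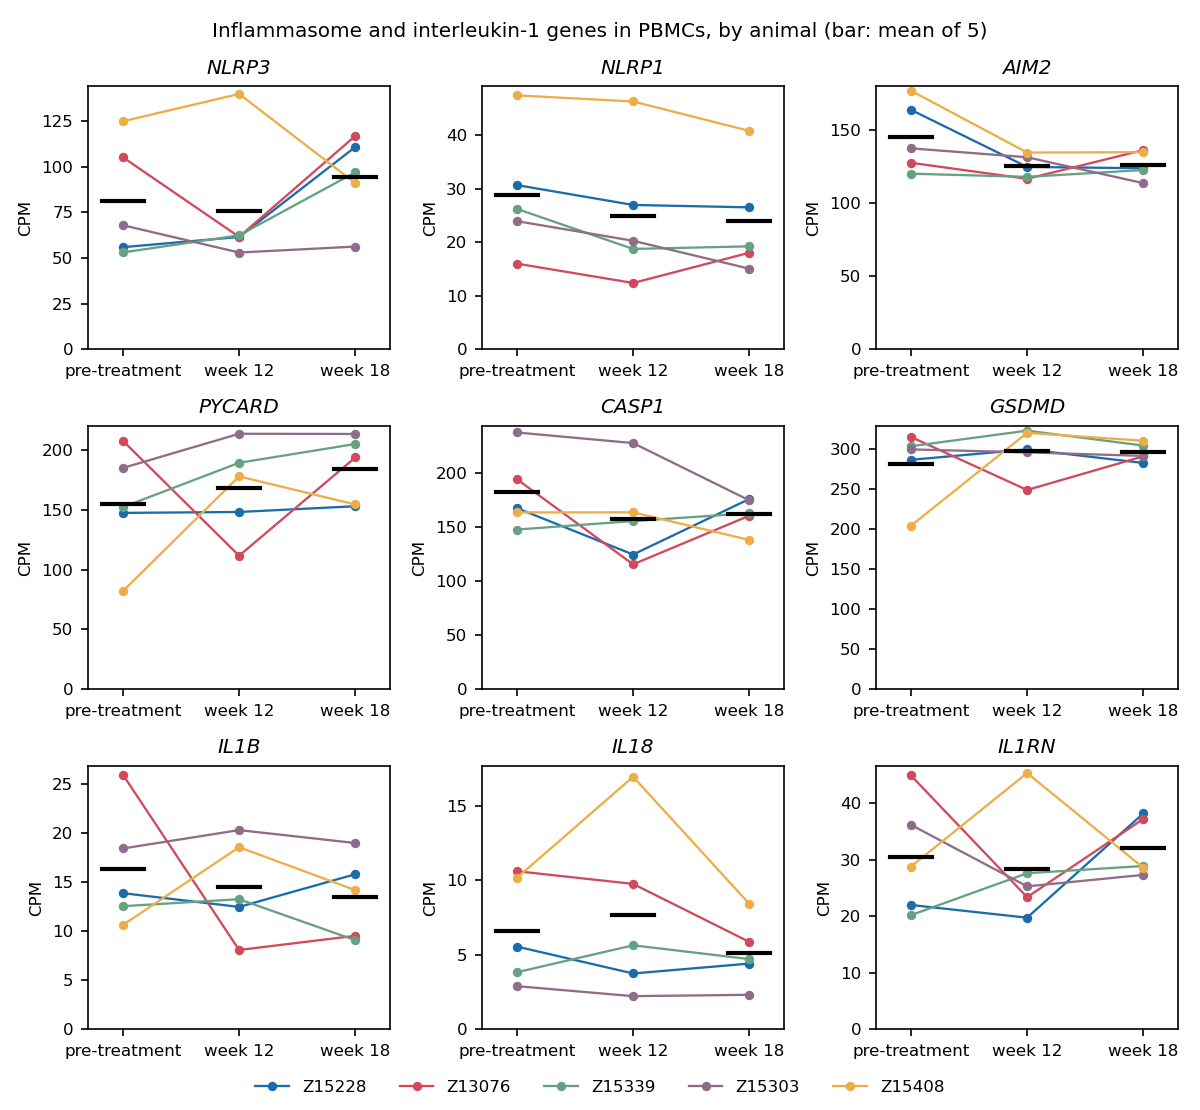
Library-scaled level (CPM, vertical axes starting at 0) of each of the 9 genes before treatment, at week 12 and at week 18. Each coloured line is an animal and each black bar the mean of the 5 animals. The lines of *NLRP1* and *IL18* lie apart by animal, *AIM2* ends in a narrower band than it began, and the lines of *IL1B* and *PYCARD* cross.

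Among the sensors, *AIM2* and *NLRP1* were lower at week 12 than before treatment in all 5 animals, by amounts that did not pass the test, while *NLRP3* moved both ways. Values below are in the order Z15228, Z13076, Z15339, Z15303 and Z15408. *AIM2* stood at 164, 127, 120, 137 and 177 CPM before treatment, at 125, 116, 118, 131 and 134 CPM at week 12, and at 124, 136, 122, 114 and 135 CPM at week 18. The animals with the highest starting levels, Z15228 and Z15408, had the largest drops, and the time points overlapped. Each drop is measured from the starting level itself, and the starting library of Z15408 is among those that stood apart. The SD over animals went from 24.2 CPM around a mean of 145 before treatment to 7.94 around 125 at week 12 and 9.35 around 126 at week 18 (n = 5 each). The log2 fold change of *AIM2* was −0.22 at week 12 (SE 0.11, 95% interval −0.46 to 0.03) and −0.20 at week 18 (SE 0.11, 95% interval −0.44 to 0.04). At week 12 the unadjusted p was 0.0768 without the block and 0.0619 with it, and edgeR's adjusted p was 0.99997 and 0.982. At week 18 *AIM2* was lower in 3 of 5 animals.

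*NLRP1* stood at 30.7, 16.0, 26.3, 24.0 and 47.5 CPM before treatment, at 27.0, 12.4, 18.8, 20.3 and 46.3 CPM at week 12, and at 26.5, 18.1, 19.3, 15.1 and 40.8 CPM at week 18. Z15408 was the highest and Z15228 the next at every time point, while the other 3 animals changed places, and the time points overlapped. The log2 fold change was −0.21 at week 12 (SE 0.35) and −0.27 at week 18 (SE 0.35). With the animal as a block the SE fell to 0.14 at both, around −0.26 at each, with unadjusted p of 0.0774 and 0.0696 and edgeR's adjusted p of 0.982 and 0.856. At week 18 *NLRP1* was lower in 4 of 5 animals.

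*NLRP1* and *AIM2* were the 2 of 9 genes (22.2%) that were lower in every animal at week 12, where 3.45% of all features were. No gene of the list was higher in every animal at week 12 (2.23% of all features). None moved 1 way in every animal at week 18 vs. pre-treatment (3.49% of features lower, 3.04% higher) or at week 18 vs. week 12 (2.87% lower, 2.99% higher). A count of 2 is small, and the log2 change was only −0.03 in Z15339 for *AIM2* and in Z15408 for *NLRP1*. Among animals that share dates, the mean log2 changes at week 12 were −0.25 for *NLRP1* and −0.16 for *AIM2*, and among the other 2 animals −0.27 and −0.26.

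*NLRP3* stood at 55.9, 105, 53.0, 67.9 and 125 CPM before treatment, at 61.5, 61.5, 62.4, 53.0 and 140 CPM at week 12, and at 111, 117, 96.8, 56.2 and 90.9 CPM at week 18. At week 12 Z15408 lay far above the other 4 animals, and at week 18 it was below 3 of them. From week 12 to week 18 *NLRP3* went up in 4 of 5 animals and by 0.32 (SE 0.30) on the log2 scale in the fit. The blocked fit gave 0.40 (SE 0.20, 95% interval −0.02 to 0.81, unadjusted p = 0.0607, edgeR's adjusted p = 0.9998). Against pre-treatment it was −0.10 (SE 0.30) at week 12 and 0.21 (SE 0.29) at week 18.

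The adaptor and the effectors had no direction that the animals shared. *PYCARD* stood at 148, 208, 152, 185 and 82.1 CPM before treatment, at 148, 112, 190, 214 and 178 CPM at week 12, and at 153, 194, 205, 214 and 155 CPM at week 18. It was higher than before treatment in 4 of 5 animals at both later times, and the exception was Z13076 each time. Its log2 fold change was 0.12 at week 12 (SE 0.22) and 0.25 at week 18 (SE 0.22). In Z15408, the animal with the lowest starting level, the log2 change at week 12 was 1.12, and in Z13076, with the highest, −0.89. Both changes are measured from the starting level itself.

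*GSDMD*, the pore-former, stood at 286, 315, 303, 300 and 204 CPM before treatment, at 300, 249, 323, 296 and 320 CPM at week 12, and at 283, 291, 304, 291 and 310 CPM at week 18. Apart from Z15408 before treatment and Z13076 at week 12, the other 13 libraries lay between 283 and 323 CPM. Its log2 fold change was 0.08 at week 12 (SE 0.12, 95% interval −0.17 to 0.33) and 0.07 at week 18 (SE 0.12, 95% interval −0.18 to 0.32), so its interval was among the narrowest of the 9. The low *GSDMD* and *PYCARD* of Z15408 before treatment were in a library that stood apart from its group more often than most.

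*CASP1* stood at 168, 194, 148, 237 and 164 CPM before treatment, at 125, 116, 156, 228 and 164 CPM at week 12, and at 176, 160, 163, 175 and 138 CPM at week 18. Z15303 was clearly the highest at the first 2 time points and not at week 18. In the fit it differed by −0.21 on the log2 scale at week 12 (SE 0.17) and −0.17 at week 18 (SE 0.17). The drop at week 12 lay in Z13076 and Z15228, at −0.75 and −0.43, with changes from −0.06 to 0.07 in the animals that share dates. *CASP1* has close relatives that hold its CARD domain, and how the counting treated shared reads was not tested, so its level is uncertain to that extent.

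Of the 9 genes, *IL18* and *IL1B* had the libraries with the fewest counts (12 and 67), so their values carry the most counting error. *IL1B* stood at 13.9, 26.0, 12.5, 18.4 and 10.6 CPM before treatment, at 12.5, 8.07, 13.2, 20.3 and 18.6 CPM at week 12, and at 15.8, 9.52, 9.07, 19.0 and 14.2 CPM at week 18. Z13076 went from the highest of the 5 to the lowest at week 12, a log2 change of −1.66, while Z15408 went from the lowest to the second highest, a change of 0.79. The log2 fold change of *IL1B* was −0.17 at week 12 (SE 0.29, 95% interval −0.78 to 0.44) and −0.28 at week 18 (SE 0.29, 95% interval −0.89 to 0.34). Without Z13076 it was 0.21 at week 12 and 0.06 at week 18, so the sign rested on that animal.

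*IL18* stood at 5.55, 10.6, 3.82, 2.89 and 10.2 CPM before treatment, at 3.74, 9.76, 5.63, 2.21 and 16.95 CPM at week 12, and at 4.40, 5.86, 4.70, 2.31 and 8.41 CPM at week 18. These levels rest on 12 to 169 counts. Z15303 was the lowest at every time point, on 26, 12 and 13 counts, the last 2 in the libraries with the fewest reads. The log2 fold change was 0.23 at week 12 (SE 0.49) and −0.35 at week 18 (SE 0.50). From week 12 to week 18 it was −0.58 (SE 0.50), or −0.44 with the animal as a block (95% interval −0.93 to 0.06).

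*IL1RN*, the antagonist, stood at 22.0, 44.9, 20.2, 36.2 and 28.8 CPM before treatment, at 19.7, 23.4, 27.6, 25.3 and 45.3 CPM at week 12, and at 38.2, 37.2, 28.9, 27.3 and 28.6 CPM at week 18. The animal with the highest level differed at each time point. The log2 fold change was −0.10 at week 12 (SE 0.24) and 0.08 at week 18 (SE 0.24). The balance of agonist to antagonist, taken as the log2 ratio of *IL1B* to *IL1RN* in a library, changed by −0.06 ± 0.52 at week 12 and by −0.37 ± 0.76 at week 18 (mean ± SD, n = 5), less than its spread over animals. The ratio of *PYCARD* to *CASP1* changed by 0.38 ± 0.46 and 0.45 ± 0.46 and was higher in 4 of 5 animals at both times. Without Z15408, whose starting library stood apart, these changes were 0.20 ± 0.24 and 0.27 ± 0.28 (n = 4), a setting added after the values were seen. Ratios of other pairs were computed too, and with all 5 animals *PYCARD* to *CASP1* had the largest mean change at week 12 among them.

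**Figure D2:**
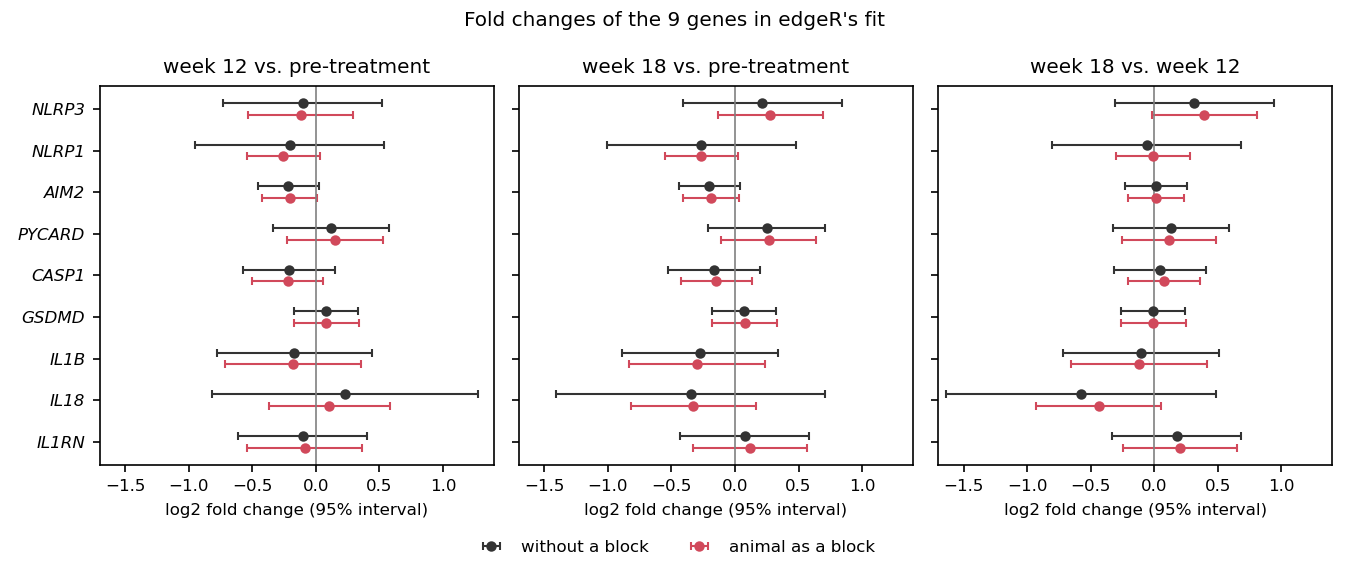
Log2 fold change of each gene (horizontal axes) in edgeR's fit for the 3 comparisons, with 95% intervals, without a block (dark) and with the animal as a block (red). Every interval holds 0, those of *AIM2* and *GSDMD* are narrow, and the block shortens those of *NLRP1* and *IL18* most.

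At week 12 the mean log2 change over the 3 sensors was below 0 in all 5 animals, from −0.42 in Z13076 to −0.09 in Z15408 and Z15339. This largely repeats *NLRP1* and *AIM2*, each lower in every animal, since *NLRP3* was lower in 2 of 5. The mean over *PYCARD*, *CASP1* and *GSDMD* was below 0 in 2 of 5 animals, from −0.66 in Z13076 to 0.59 in Z15408. For *IL1B*, *IL18* and *IL1RN* it was below 0 in 3 of 5 animals, from −0.90 in Z13076 to 0.72 in Z15408. At week 18 each role was below its starting level in 2 of 5 animals. These means describe 3 genes each, and no difference between roles was tested.

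**Figure D3:**
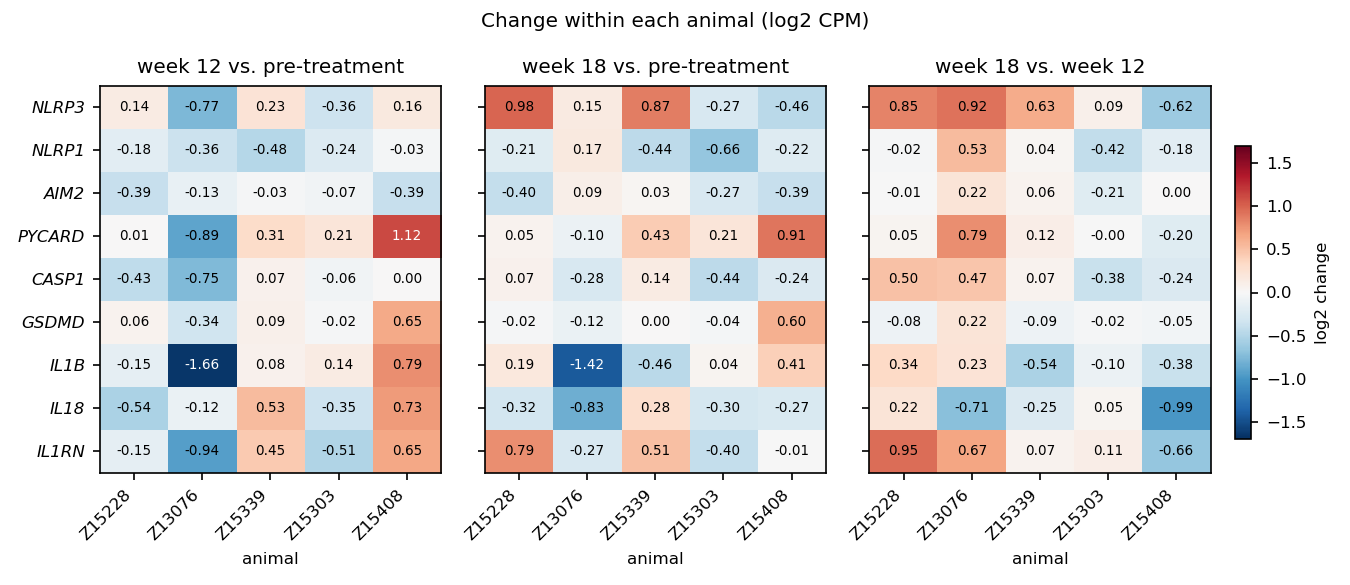
Change in log2 CPM (colour and printed value) of each gene in each animal for the 3 comparisons, blue for lower and red for higher. In the panel of week 12 vs. pre-treatment the column of Z13076 is below 0 for all 9 genes, and that of Z15408 is above 0 for 7.

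In Z13076 and in Z15408 most genes of the list moved the same way at week 12, in opposite directions. Not all pairs of the list ran together over the 15 libraries. With each animal's mean taken out, the Pearson correlation ran from −0.46 (*AIM2* and *GSDMD*) to 0.90 (*PYCARD* and *GSDMD*). In Z13076 all 9 genes were lower at week 12 than before treatment, with a median log2 change of −0.75, where 48.8% of all features were lower. In Z15408, 7 of 9 were higher, with a median of 0.65, where 47.3% of all features were higher. The 7 include *CASP1*, which was almost unchanged at 0.0004. The starting library of Z15408, which these changes are measured from, stood apart from its group at 2.73% of features. From week 12 to week 18, 8 of 9 genes were higher in Z13076 (median 0.47) and 8 of 9 lower in Z15408 (median −0.24), and both comparisons use the same week 12 library. Of all features, 49.5% were higher in Z13076 and 49.6% lower in Z15408 between these times. Against pre-treatment, *PYCARD* and *GSDMD* of Z15408 were still higher at week 18, by 0.91 and 0.60 on the log2 scale. In Z15228 and Z15303, 6 and 7 of 9 genes were lower at week 12, with medians of −0.15 and −0.07, and in Z15339 7 of 9 were higher, with a median of 0.09. Of all features, 51.1% were lower in Z15228, 51.1% lower in Z15303 and 50.2% higher in Z15339.

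**Figure D4:**
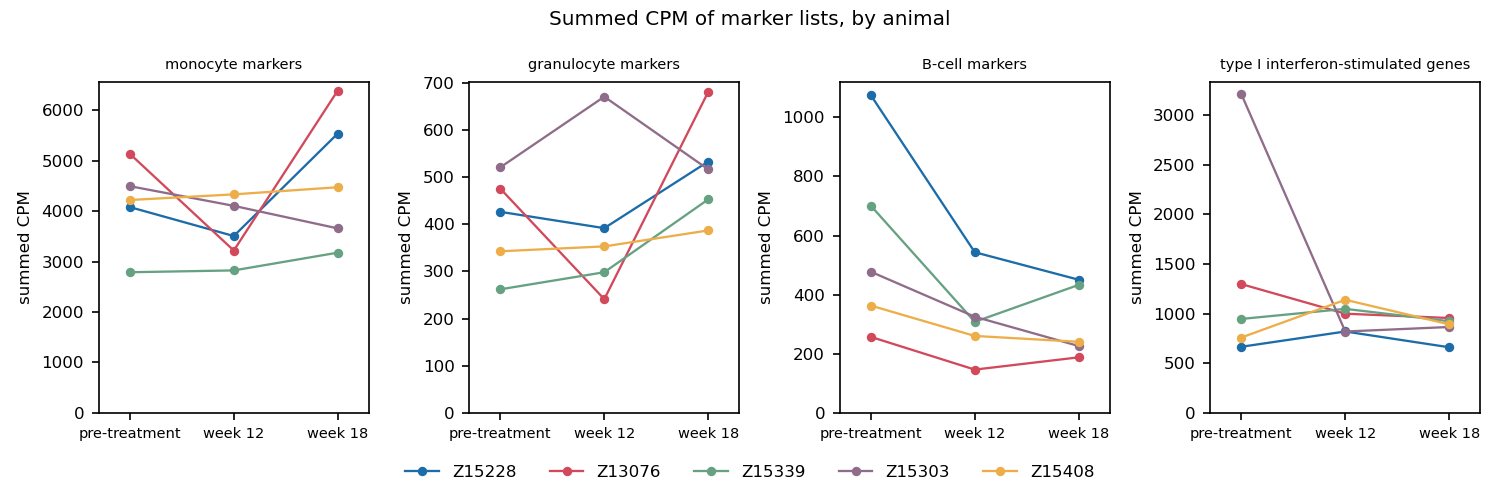
Summed CPM of 4 marker lists (vertical axes starting at 0) at the 3 time points, 1 line per animal. The monocyte markers of Z13076 fall at week 12 and rise at week 18, the B-cell markers fall in all 5 animals at week 12, and the interferon-stimulated genes of Z15303 are high before treatment.

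In bulk PBMCs, fewer cells of a type and less RNA per cell cannot be told apart from RNA alone. Marker levels are therefore given beside these changes. The study also counted blood cells in these animals and reported fewer monocytes and CD20 cells during treatment. Afterwards monocytes were back at pre-treatment levels, and CD20 cells stayed lower. Those counts are estimates per study period and were not joined to the libraries here. The summed CPM of 13 monocyte markers went from 5136 to 3219 and 6391 in Z13076, and all 13 markers were lower at week 12 in that animal, with a median log2 change of −0.91. At week 18, 3 of the 13 were below the start in Z13076 (median change 0.37), while 6 of the 9 genes of the list were (median −0.12). In Z15228, 11 of the 13 markers were lower at week 12 (median −0.32), with 6 of the 9 genes lower (median −0.15). In Z15408 the sum was 4220, 4332 and 4474, and the median log2 change of the markers at week 12 was 0.13. The 7 genes of the list that were higher in that animal changed by 0.0004 (*CASP1*) to 1.12 (*PYCARD*). Over all animals the sum ranged from 2788 to 5136 before treatment, from 2824 to 4332 at week 12 and from 3176 to 6391 at week 18, and no monocyte marker passed the test. *CTSS*, the lysosomal protease cathepsin S, was lower at week 12 in 5 of 5 animals, by −0.41 on the log2 scale (SE 0.18, unadjusted p = 0.0354, edgeR's adjusted p = 0.99997). *CD14*, the lipopolysaccharide co-receptor of monocytes, differed between the later times by 0.68 on the log2 scale (SE 0.32, unadjusted p = 0.0468, edgeR's adjusted p = 0.9997), with the higher value at week 18 in 5 of 5 animals. The part of monocytes in the changes of Z13076, Z15228 and Z15408 was not tested.

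Levels of other marker lists also differed between libraries. The 11 granulocyte markers summed to 262 to 521 CPM before treatment, 241 to 671 at week 12 and 387 to 681 at week 18, and 1 of the 11 was at 0 in each of 2 libraries, from the pair *MMP8* and *ELANE*. Of the 9 tested B-cell markers, all were lower at week 12 in every animal, and their sum went from 257 to 1075 CPM before treatment to 146 to 544 at week 12. None passed edgeR's test after adjustment, while DESeq2 with the animal as a block called 8 of the 10 B-cell markers at each later time. In Z15408 the summed CPM of the NK-cell markers was 3298, 6075 and 5955 at the 3 times in order, and that of the T-cell markers 2191, 2722 and 2897. In Z13076 the platelet markers summed to 3524, 8230 and 4333 CPM. The interferon-stimulated genes of Z15303 summed to 3212 CPM before treatment, against 665 to 1297 in the other animals, and to 819 at week 12. *CASP1* and *AIM2* are themselves inducible by interferon. In Z15303 *CASP1* was the highest of the 5 before treatment and at week 12, and *AIM2* was in the middle before treatment. The part of these cells, of platelets and of interferon in the levels was not tested.

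**Figure D5:**
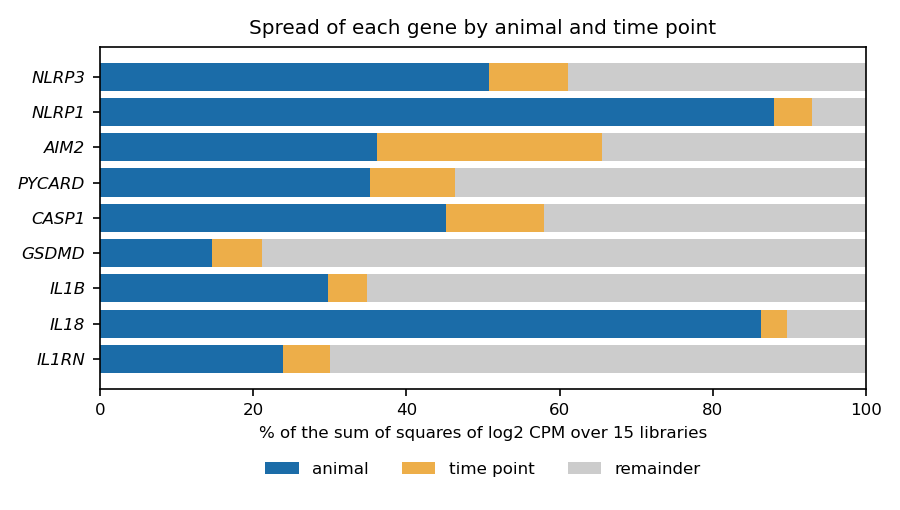
Share of the sum of squares of log2 CPM over the 15 libraries (horizontal axis, percent) that goes with the animal, the time point and the remainder, for each gene. The animal takes most of the bar for *NLRP1* and *IL18*, and the remainder takes most of it for *GSDMD*, *IL1RN*, *IL1B* and *PYCARD*.

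The spread of each gene over the 15 libraries was divided among animal, time point and remainder. With 5 animals and 3 time points the animal term has 4 degrees of freedom and the time term 2, so the shares of the 2 are not set against each other. The animal accounted for 87.9% of the sum of squares of *NLRP1*, 86.3% of that of *IL18* and 50.8% of that of *NLRP3*, with 14.6% for *GSDMD* as the lowest, against a median of 51.9% over all features. The time point accounted for 3.48% (*IL18*) to 29.4% (*AIM2*), against a median of 6.23%. In edgeR's blocked fit the animal term passed for *NLRP1* (adjusted p = 2.50e-05), *IL18* (adjusted p = 0.000228) and *NLRP3* (adjusted p = 0.0255). That is 3 of 9 genes (33.3%), close to the 30.9% of all features, so it says nothing particular to the list. Without Z15303 or without Z15408 *NLRP3* no longer passed (adjusted p = 0.0909 and 0.155), and without Z13076 *PYCARD* and *CASP1* passed too. This test was added after the values were seen, and *NLRP1* and *IL18* passed in every setting tried.

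By animal, the mean *NLRP1* level over the 3 time points ran from 15.5 CPM in Z13076, 19.8 in Z15303, 21.4 in Z15339 and 28.1 in Z15228 to 44.9 in Z15408. The range of Z15408, from 40.8 to 47.5 CPM, lay above every library of the other animals, which reached 30.7 CPM. Z15303 overlapped with both Z13076 and Z15339, its neighbours in this order, and Z15228 lay above Z15339. For *IL18* the means were 2.47 CPM in Z15303, 4.56 in Z15228, 4.72 in Z15339, 8.74 in Z13076 and 11.8 in Z15408. The libraries of Z15303 lay below all others, Z15228 and Z15339 overlapped, and so did Z13076 and Z15408. The 2 genes thus ordered the animals differently: Z13076 had the lowest mean of *NLRP1* and the second highest of *IL18*. Whether sequence differences between animals affected the mapping of reads was not tested.

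Genes whose level ran most like that of a gene of the list were sought among all tested genes with a symbol, by Pearson correlation of log2 CPM over the 15 libraries of 5 animals, as a description. For *IL1B* they were *IGHMBP2* (r = 0.85), *METRNL* (r = 0.85) and *C20orf27* (r = 0.82). For *NLRP3* they were *KCNQ1* (r = 0.89), *ADAMTSL4* (r = 0.88) and *CD163* (r = 0.87), of which *CD163*, a scavenger receptor of monocytes and macrophages, is one of the monocyte markers. For *IL1RN* they were *DHRS9* (r = 0.83), *C5AR1* (r = 0.82) and *TYMP* (r = 0.80), where *C5AR1* is the complement C5a receptor of myeloid cells. For *AIM2* they were *DDX50* (r = 0.84), *APPBP2* (r = 0.84) and *DDX5* (r = 0.83), none of them a marker on the lists. Libraries of an animal are not independent, and depth and cell makeup are shared by all points.

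Other genes of the pathway were read from lists by role, and none passed the adjusted threshold of edgeR in any comparison, with or without the block. DESeq2 called none of them without a block. With the animal as a block DESeq2 called 1 of them, *NFKBIZ*, at week 12 and at week 18 vs. pre-treatment, where it called 0.179% and 0.241% of all features, and it called none at week 18 vs. week 12. Of 11 other sensors and licensing factors tested, 0 of 11 had an unadjusted p below 0.05 at either later time in the fit without the block, and 5 of 11 fold changes were below 0 at each. With the animal as a block 1 of 11 did at week 18, *NLRP12*, an NLR of myeloid cells, at 0.41 (unadjusted p = 0.0189, edgeR's adjusted p = 0.780), against 0.35 (SE 0.31) without it. *IFI16*, a DNA sensor related to AIM2, had a log2 fold change of −0.16 at week 18 (SE 0.13), and *MEFV*, which encodes pyrin, one of −0.21 at week 12 (SE 0.21). Of 10 other effectors and regulators, 6 fold changes were below 0 at each later time. *GSDME*, the gasdermin cut by caspase-3, had a low level that was higher at week 18 in 5 of 5 animals, 2.56 ± 1.13 CPM against 1.55 ± 0.79 CPM at the start (SD, n = 5), or 0.72 on the log2 scale (SE 0.45). *TXNIP*, which binds thioredoxin and has been linked to NLRP3, had a log2 fold change of −0.30 at week 18 (SE 0.17).

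Beyond *IL1B*, *IL18* and *IL1RN*, ligands of the family were at or near 0 counts. The 8 other ligands of the interleukin-1 family on the list had at most 9 counts in any library, *IL36B* and *IL1F10* had 0, and none was tested. Of 7 receptors and binding proteins tested, 4 had fold changes below 0 at each later time. *IL1RAP*, the shared co-receptor, had a log2 fold change of −0.34 at week 12 (SE 0.24), and *IL18RAP*, the accessory chain of the interleukin-18 receptor, one of −0.60 (SE 0.44). *SIGIRR*, an inhibitory member of the receptor family, was higher at week 12 in 5 of 5 animals, by 0.14 (SE 0.10).

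Downstream of the receptor, 1 of 13 signaling genes had an unadjusted p below 0.05 at week 12, as 1.61% of all features did. It was *IRAK3*, which restrains receptor signaling, whose level went from 19.5 ± 2.8 CPM to 14.2 ± 3.9 CPM (SD, n = 5), or by −0.47 on the log2 scale (SE 0.19, unadjusted p = 0.0229). It was lower in 5 of 5 animals at both later times. Of 15 NF-κB response genes, 12 had fold changes below 0 at each later time, against 49.0% and 49.8% of all features. In edgeR without the block, 2 of the 15 had an unadjusted p below 0.05 at week 12 and 1 at week 18. Over all features 1.61% and 1.69% did. *NFKBIZ*, which encodes the nuclear regulator IκBζ, went from 161 ± 43.8 CPM to 101 ± 33.0 at week 12 and 103 ± 23.7 at week 18. Both values were lower in 5 of 5 animals, by −0.67 (SE 0.24) and −0.65 (SE 0.24) on the log2 scale, and in the blocked fit of edgeR its adjusted p was 0.101 and 0.0599. DESeq2 with the same block gave −0.66 (SE 0.13) and −0.62 (SE 0.13), with adjusted p of 0.00103 and 0.00183, so the call depends on the tool. *REL*, the c-Rel subunit, was lower in 5 of 5 animals at both, with −0.42 (SE 0.19) and −0.34 (SE 0.19). *NFKBIZ* and *REL* are expressed in lymphocytes as well as monocytes, and the B-cell markers were lower in the same libraries. The part of B cells in these values was not tested.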

How the data were processed

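RNA of the PBMCs was amplified with SMART-Seq v4 and made into libraries with Nextera XT, as the study's methods state. Per the labels, the authors aligned the reads with STAR (version 2.7.9a in the submitters' processing notes) and counted them against the Ensembl annotation of *M. nemestrina*. The deposited table holds raw counts per feature, without normalization. Which strand column was counted is not given in the sources used here. Groups and animals came from the sample labels, and libraries were paired by animal. That the samples of a number are the same animal is stated by the labels. The lowest correlation of deviations between libraries of an animal was 0.351.

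Analysis used R 4.3.3 with edgeR 4.0.16, limma 3.58.1 and DESeq2 1.42.0. Features were kept by filterByExpr (minimum count 10), scaled by TMM and tested by edgeR's quasi-likelihood F test, fitted to the 15 libraries with no term but the time point, with Benjamini-Hochberg adjustment over the 12880 features. Each SE was derived from the fold change and F, and intervals use the t distribution with the fit's degrees of freedom. Log2 CPM used a prior count of 2. The fit was tested on simulated data. Alternatives were the animal as a block, DESeq2's test and size factors, library size without TMM, no filter, the compared time points alone, the animals with shared dates, and leaving out each animal.

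Every gene of the list is named. From the other lists, genes are named from the up to 4 with the smallest unadjusted p at week 12 or week 18 vs. pre-treatment, with the genes most correlated with 4 of the list. The choice among them, *CD14* at week 18 vs. week 12 and the genes at 0 counts were taken after values were seen, as were DESeq2's calls on these lists. The genes and the lists were chosen with earlier results of these data known. Duplicate libraries were looked for and none was found. The gene table at hand is of another assembly and matched 1 of the 10 symbols, so no coordinates or sequences are given. Total counts ran from 5610597 to 10379572 per library, so genes of few counts carry a wide error.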

Additional observations from a re-analysis of the deposited data

Results flagged for a closer look

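Of 27 groups of 5 libraries (9 genes at 3 time points), 2 held a library far from the others. A library stood out when, in log2 CPM, its gap to the nearest other exceeded 0.71 of the group's whole range. This is Dixon's critical value for 5 samples, and chance alone exceeds it in about 5% of groups. *NLRP3* at week 12 was highest in Z15408, at 140 CPM against 53.0 to 62.4 CPM in the other 4 animals, and the gap was 0.831 of the range. *GSDMD* before treatment was lowest in Z15408, at 204 CPM against 286 to 315 CPM, and the gap was 0.781 of the range.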

How the results depend on the processing

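No gene of the list passed between time points under any alternative. Over all features, edgeR with the animal as a replicate block called 1 at week 12 and 1 at week 18 vs. pre-treatment, in place of 0. DESeq2 called 1 at week 12 without a block, and 23, 50 and 8 with it in the 3 comparisons. Leaving out 1 animal at a time, the count stayed at 0 without the block and ranged from 0 to 6 at week 12 and from 0 to 17 at week 18 with it. The most were without Z13076, and week 18 without Z15408 gave 3. The genes of the list past the animal term ranged from 2 to 5. Of the genes on the other lists, DESeq2 with the block called 9 at week 12 and 9 at week 18 vs. pre-treatment (*NFKBIZ* and 8 B-cell markers), in place of 0.

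On the animals with shared dates (3 per time point), signs turned at week 12 for *NLRP3* (0.076), *CASP1* (0.0057), *IL1B* (0.33) and *IL1RN* (0.22). They turned at week 18 for *IL1B* (0.026), and from week 12 to week 18 for *NLRP3* (−0.066), *AIM2* (−0.048), *PYCARD* (−0.019), *CASP1* (−0.20) and *IL1RN* (−0.22). No setting that kept all 5 animals turned a sign, and the cause was not tested. Leaving out 1 animal, with or without the replicate block, log2 fold changes that changed sign at week 12 ranged from −0.24 to 0.072 (*NLRP3*), −0.081 to 0.40 (*PYCARD*), −0.048 to 0.19 (*GSDMD*), −0.42 to 0.22 (*IL1B*), −0.11 to 0.36 (*IL18*) and −0.36 to 0.14 (*IL1RN*). At week 18 they ranged from −0.043 to 0.13 (*GSDMD*), −0.45 to 0.059 (*IL1B*) and −0.086 to 0.26 (*IL1RN*). From week 12 to week 18 they ranged from −0.14 to 0.074 (*NLRP1*), −0.039 to 0.068 (*AIM2*), −0.018 to 0.22 (*PYCARD*), −0.057 to 0.19 (*CASP1*) and −0.059 to 0.013 (*GSDMD*). Depth limits *IL18* most, with as few as 12 counts in a library. With 5 animals, the intervals of *IL18*, *NLRP1* and *NLRP3* without the block at week 12 reach beyond 0.5 on the log2 scale either way.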

Other observations

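Within animals, 2 pairs of the list ran together most closely. After each animal's mean was taken out, the log2 CPM of *PYCARD* and *GSDMD* had a Pearson correlation of 0.90 over the 15 libraries (0.84 before), and that of *NLRP3* and *IL1RN* one of 0.86 (0.77 before). *PYCARD* and *GSDMD* were both lowest in Z15408 before treatment (82.1 and 204 CPM) and next lowest in Z13076 at week 12 (112 and 249 CPM). Their correlation without these libraries was not computed, so it may rest on them. The most negative pairs were *AIM2* and *GSDMD* (−0.46 within animals, −0.53 before) and *AIM2* and *PYCARD* (−0.33 within animals, −0.51 before). Of the genes nearest to *NLRP3*, *KCNQ1* kept a correlation of 0.91 within animals. These are descriptions over libraries of 5 animals that share depth and cell makeup.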
